A study of Mus musculus with 2 samples.

Results

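G protein-coupled receptors and the RGS proteins that switch off their G proteins were examined in mouse skin fibroblasts given IL-17A or vehicle. Members were taken by gene symbol, from the families Gpr, Gprc, Adgr, S1pr, Lpar, P2ry, Adra, Adrb, Adora, F2r, Bdkrb, Agtr, Oxtr, Npr, Pth1r, Calcrl, C5ar, Ackr, Ccr, Cxcr and Rgs. Cx3cr1 and Rgs5 were left out, and at least 50 counts summed over both libraries were required. Of 166 rows with such a symbol, 86 reached that minimum, out of 13534 genes that reached it in the whole table of 19674 rows. RNA came from fibroblasts of mouse skin, a wild-type line named MDFB in the labels. The groups were IL-17A, an inflammatory cytokine, and vehicle, with 1 library each under the same batch label, and the labels used here gave no dose, no treatment time and no age or strain of mouse. With 1 library per group no difference had a replicate check, no test was possible and no p-value is given. What follows describes these libraries.

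The IL-17A library held 23559416 counts and the vehicle library 24427027. The 86 members took 0.366% of the counts with IL-17A and 0.361% with vehicle. Levels are in CPM, counts per 1000000 counts of library size after TMM scaling, and levels of different genes are compared only per kilobase of exon. Each ratio is IL-17A over vehicle with an exact 95% Clopper-Pearson interval, which covers counting error only, since PCR reads are not independent molecules and the variation between cultures was not measured. A gene is called higher or lower at a ratio of 2-fold or more. Fibroblast markers were abundant in both libraries, with all 9 of 9 markers measured and a summed level of 38251 CPM with IL-17A and 56111 CPM with vehicle. Transcripts of other cell types were also present. The 5 markers of mural cells, the contractile cells of vessel walls, summed to 54.8 CPM with IL-17A and 156 CPM with vehicle, and 4 of the 4 measured were at least 2-fold lower. The 8 myeloid markers summed to 272 CPM with IL-17A and 198 CPM with vehicle, mostly from Lyz2, and 1 of 8 was at least 2-fold lower. Sox10, a marker of neural-crest glia and melanocytes, had 129 counts with IL-17A and 145 with vehicle. The T-cell markers Cd3e and Cd3g were at 0 in both libraries, and the third lymphoid marker, Trac, had 40 counts with IL-17A and 102 with vehicle, 2.35-fold lower (interval 1.61 to 3.47).

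G protein-coupled receptors sit in the cell membrane and, on binding a ligand, load a heterotrimeric G protein with GTP. Its alpha subunit then acts on adenylyl cyclase, phospholipase C or exchange factors of small GTPases. RGS proteins speed the hydrolysis of that GTP and so shorten the signal. In skin fibroblasts such receptors are known to respond to thrombin, lysophospholipids, kinins, adenosine, angiotensin and catecholamines, and to bear on contraction, migration and matrix production.

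Of the 86 members 24 passed 2-fold in either direction, where 8.88% of all measured genes did. With IL-17A 12 members (14.0%) were higher by this limit, against 5.19% of all measured genes. Another 12 (14.0%) were lower, against 3.69% of all measured genes. The remaining 62 lay within 2-fold. The higher members were Gpr84, Bdkrb1, Gpr35, Rgs16, Adora2b, Rgs8, P2ry2, F2rl1, Rgs3, Gpr45, Bdkrb2 and Gprc5a. The lower members included Gpr17, Adra1b, Npr3, Agtr2, Adrb1, Adgrd1, Rgs4, Adgrf5, Gprc5c, Adgrg1 and Ackr3. The median log2 ratio of all 86 members was 0.03, beside 0.00 over all measured genes. Lower and upper quartiles were -0.40 and 0.57 for members and -0.20 and 0.22 for all genes.

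**Figure D1:**
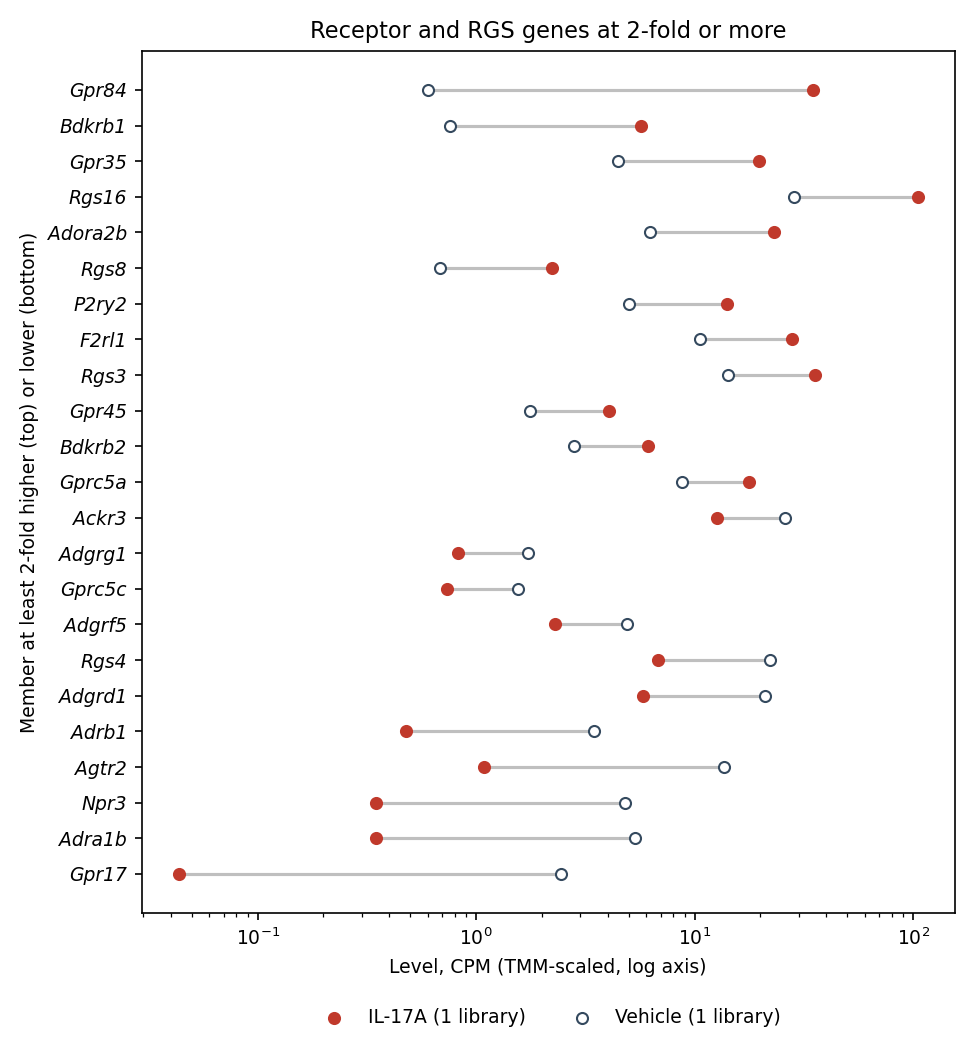
Level in CPM on a log axis of 23 members at 2-fold or more, with the IL-17A library as a filled red point and the vehicle library as an open point, 1 library each. Gpr84 stood at 34.9 CPM with IL-17A and 0.600 CPM with vehicle, and Gpr17 at 0.0435 CPM with IL-17A and 2.44 CPM with vehicle.

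The members past 2-fold differed in depth. Of the 28 members with 50 to 199 summed counts, 3 were higher and 8 lower, where 9.48% and 10.9% of all genes in that range were. Of the 32 members with 200 to 999 counts, 7 were higher and 4 lower, where 5.14% and 4.12% of genes were. Of the 26 members with 1000 counts or more, 2 were higher, namely Rgs16 and Rgs3, and 0 lower, where 4.06% and 1.53% of genes were. The lower members thus lay mainly among the less counted genes, and all 12 had fewer than 1000 summed counts.

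**Figure D2:**
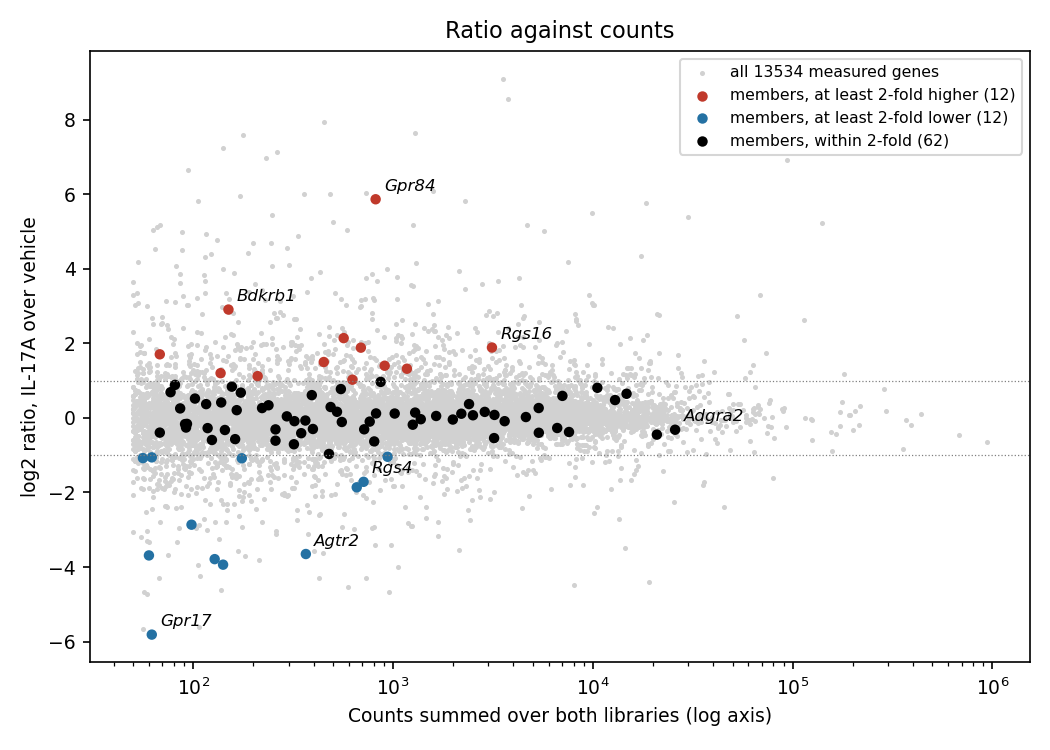
log2 ratio of IL-17A over vehicle against summed counts on a log axis, with all 13534 measured genes in grey, 12 higher members in red, 12 lower members in blue and the 62 others in black; dotted lines mark 2-fold. Gpr84 had the highest ratio of the members at 5.86 and Gpr17 the lowest at -5.81, and the most counted member, Adgra2, stood at -0.32.

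Receptors for kinins and for proteases included 3 of the higher members. Bdkrb1, the kinin receptor known to be induced in inflamed tissue, had 131 counts (5.69 CPM) with IL-17A and 19 counts (0.760 CPM) with vehicle, 7.49-fold higher (interval 4.61 to 12.8). Bdkrb2, the receptor that intact bradykinin binds, had 140 counts with IL-17A and 70 with vehicle, 2.17-fold higher (interval 1.62 to 2.94). The kinin receptors were therefore both higher. Per length, Bdkrb1 stood at 3.97 and Bdkrb2 at 1.60 CPM per kb with IL-17A, against 0.529 and 0.738 CPM per kb with vehicle. F2rl1, a receptor that trypsin-like proteases switch on by cutting it, had 643 counts (27.9 CPM) with IL-17A and 265 counts (10.6 CPM) with vehicle, 2.64-fold higher (interval 2.28 to 3.05). The related thrombin receptor F2r differed in direction. It had 8419 counts with IL-17A and 12487 with vehicle, 1.36-fold lower (interval 1.33 to 1.40), and was the most abundant member per length, at 110 CPM per kb with IL-17A and 150 CPM per kb with vehicle.

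Among receptors for peptide hormones, Agtr2, an angiotensin receptor known mainly from fetal and injured tissue, had 25 counts (1.09 CPM) with IL-17A and 341 counts (13.6 CPM) with vehicle, 12.6-fold lower (interval 8.36 to 19.7). Agtr1a, which carries most known actions of angiotensin, had 266 counts with IL-17A and 258 with vehicle, a log2 ratio of 0.16 (interval -0.09 to 0.42). The angiotensin receptors thus differed from each other in these libraries. Pth1r, the receptor for parathyroid hormone and its related peptide, had 1586 counts with IL-17A and 1631 with vehicle, a log2 ratio of 0.08. Calcrl, which becomes a receptor for adrenomedullin or calcitonin gene-related peptide depending on the RAMP protein it pairs with, had 557 counts (24.2 CPM) with IL-17A and 310 counts (12.4 CPM) with vehicle, 1.95-fold higher (interval 1.70 to 2.25). This ratio was just inside the 2-fold limit, and its interval spanned it.

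Both adenosine and nucleotide receptors held a higher member. Adora2b, the low-affinity adenosine receptor that raises cyclic AMP, had 533 counts (23.2 CPM) with IL-17A and 157 counts (6.28 CPM) with vehicle, 3.69-fold higher (interval 3.08 to 4.44). P2ry2, which binds ATP and UTP, had 325 counts with IL-17A and 125 counts with vehicle, 2.83-fold higher (interval 2.29 to 3.50). The other 2 measured members of this group, the UDP receptor P2ry6 and P2ry10b, stood at 0.21 and 0.25 on the log2 scale with intervals that spanned 0.

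All 5 measured adrenergic receptors, which bind adrenaline and noradrenaline, had log2 ratios below 0, where 49.7% of all measured genes did. At least 2-fold lower were 2, against 3.69% of all measured genes. Both had 50 to 199 summed counts, where 10.9% of all genes were lower. Adra1b, coupled to phospholipase C, had 8 counts (0.348 CPM) with IL-17A and 133 counts (5.32 CPM) with vehicle, 15.3-fold lower (interval 7.54 to 36.2). Adrb1, coupled to adenylyl cyclase, had 11 counts (0.478 CPM) with IL-17A and 87 counts (3.48 CPM) with vehicle, 7.28-fold lower (interval 3.87 to 15.1). Both were thus near the low end of detection with IL-17A, where 3 counts correspond to 0.130 CPM. Adra1d, with 153 counts with IL-17A and 325 with vehicle, was 1.95-fold lower (interval 1.61 to 2.38), and under total-count or upper-quartile scaling it passed 2-fold. Adra2a stood at -0.27 with an interval that spanned 0. Alpha-adrenergic receptors and Rgs4 are also known from mural cells, and the mural markers moved the same way. Kcnj8 had 6 counts with IL-17A and 100 with vehicle, Abcc9 had 12 and Notch3 167 with IL-17A against 169 and 692 with vehicle, and Cspg4 had 1070 with IL-17A and 2908 with vehicle. The part of mural transcripts in these ratios was not tested, and fewer cells of a type cannot be told apart from less RNA per cell in bulk RNA.

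**Figure D3:**
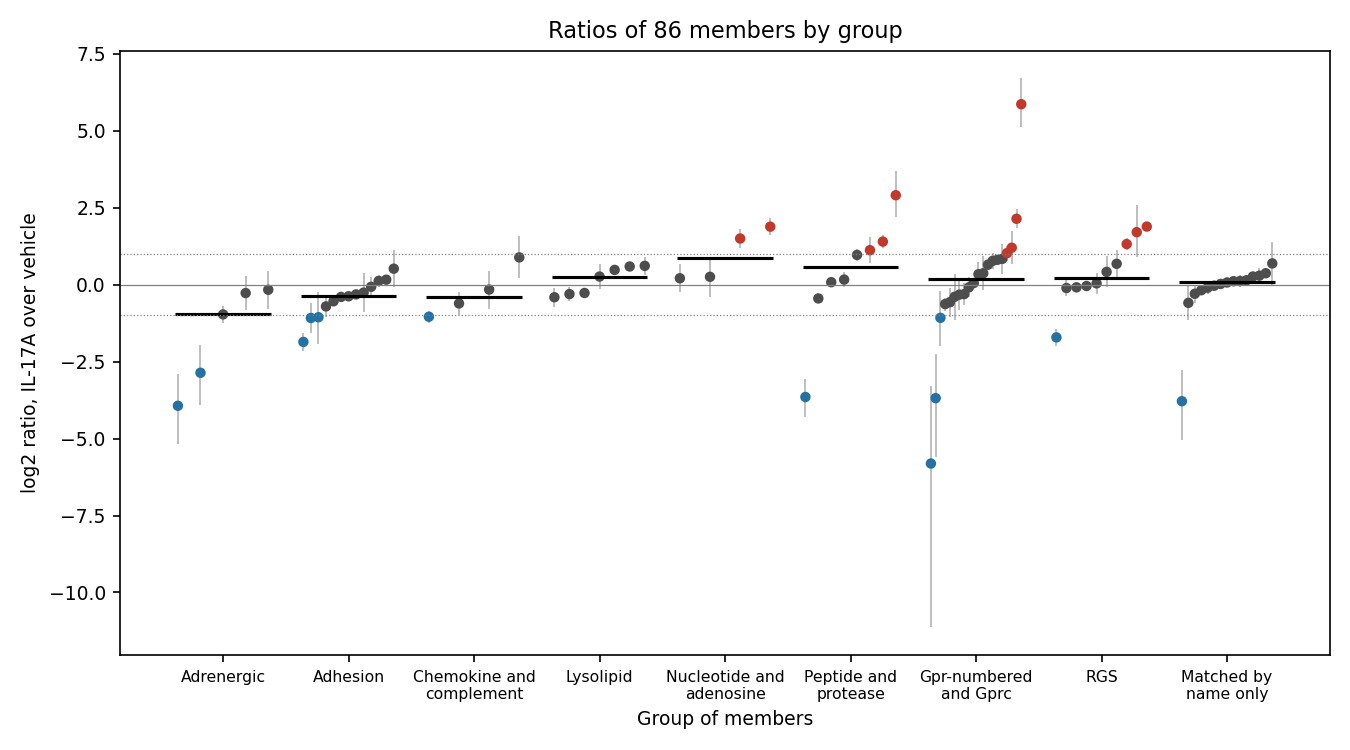
log2 ratio of IL-17A over vehicle of each of the 86 members with its 95% counting interval, grouped by receptor class, with red for at least 2-fold higher, blue for at least 2-fold lower, a bar at each group's median and dotted lines at 2-fold. The medians were -0.97 for 5 adrenergic, -0.38 for 13 adhesion and 0.88 for 4 nucleotide and adenosine receptors.

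Adhesion receptors carry long extracellular domains that bind matrix or neighbouring cells. Of 13 measured, 10 had log2 ratios below 0, where 49.7% of all measured genes did, and the median was -0.38. At least 2-fold lower were 3 and higher 0, against 3.69% and 5.19% of all measured genes. Of these 3, Adgrf5 and Adgrg1 had 50 to 199 summed counts, where 10.9% of all genes were lower. Adgrd1 had 133 counts with IL-17A and 525 with vehicle, 3.63-fold lower with an upper bound of 4.43. Adgrf5 had 53 counts with IL-17A and 122 with vehicle, 2.12-fold lower (interval 1.52 to 2.98). Adgrg1, known to bind collagen III, had 19 counts with IL-17A and 43 with vehicle, 2.08-fold lower (interval 1.19 to 3.78). The abundant adhesion receptors lay within 2-fold and mostly below 0. Adgra2, a co-receptor in Wnt signalling, had 10960 counts (82.5 CPM per kb) with IL-17A and 14839 counts (103 CPM per kb) with vehicle, 1.25-fold lower (interval 1.22 to 1.28). Adgre5, known as CD97, had 2205 counts with IL-17A and 3159 with vehicle, 1.32-fold lower. The latrophilins Adgrl1, Adgrl2 and Adgrl3 had log2 ratios of -0.38, -0.54 and -0.71, each with an interval below 0. Adgra3, Adgrg6, Adgrg2 and Adgrb2 ranged from -0.26 to 0.52. Adgre1, the macrophage antigen known as F4/80, had 170 counts with IL-17A and 194 with vehicle, a log2 ratio of -0.07 (interval -0.38 to 0.23).

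Chemokine and complement receptors were sparse, with 4 of 20 matched rows measured. Ackr3, an atypical receptor that takes up Cxcl12 without G protein signalling, had 290 counts (12.6 CPM) with IL-17A and 649 counts (26.0 CPM) with vehicle, 2.06-fold lower (interval 1.79 to 2.37). C5ar1, the receptor for the complement fragment C5a, had 97 counts with IL-17A and 161 with vehicle, a log2 ratio of -0.61 (interval -0.99 to -0.24). The leukocyte chemokine receptor Ccr1 stood at 0.89 (interval 0.21 to 1.59). C5ar1 and Ccr1 are best known from myeloid cells.

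The receptors for sphingosine-1-phosphate and lysophosphatidic acid, lipids carried in serum, were all within 2-fold. The 3 measured S1pr genes each had a ratio and an interval above 1. S1pr3 had 7256 counts (70.7 CPM per kb) with IL-17A and 5659 counts (50.7 CPM per kb) with vehicle, 1.39-fold higher (interval 1.35 to 1.44). S1pr2 was 1.51-fold and S1pr1 1.53-fold higher. Of the 4 measured Lpar genes, 3 had a ratio and an interval below 1. Lpar1, the most counted of them, had 2869 counts (29.1 CPM per kb) with IL-17A and 3762 counts (35.1 CPM per kb) with vehicle, 1.21-fold lower (interval 1.15 to 1.27). Lpar4 and Lpar6 stood at -0.31 and -0.41, and Lpar2 at 0.26 with an interval that spanned 0.

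The 20 receptors named by a Gpr number or as Gprc, many without an agreed ligand, spanned the widest range. At least 2-fold higher were 4 and lower 3, against 5.19% and 3.69% of all measured genes. Gpr84, which responds to medium-chain fatty acids and is known from activated myeloid cells, had 803 counts (34.9 CPM) with IL-17A and 15 counts (0.600 CPM) with vehicle, 58.2-fold higher (interval 35.1 to 104). Of its 1725 exon bases 681 overlap Gm49482 on the opposite strand, and since the strand setting of the counting is unstated, reads of the pair cannot be told apart. Per length it stood at 20.2 CPM per kb with IL-17A, close to S1pr2 at 22.3 CPM per kb in the same library. Gpr35, with kynurenic acid among its proposed ligands, had 454 counts (19.7 CPM) with IL-17A and 112 counts (4.48 CPM) with vehicle, 4.41-fold higher (interval 3.58 to 5.47). Both genes are known from myeloid cells. Of the 8 myeloid markers, Ptprc, Csf1r and Tyrobp had 88, 402 and 102 counts with IL-17A and 87, 408 and 92 with vehicle, with intervals that spanned a ratio of 1. Itgam, Lyz2 and Fcgr3 had ratios of 1.94, 1.48 and 1.42 with intervals above 1. Cd68 was 1.48-fold and Cx3cr1 7.77-fold lower, so the markers did not move in 1 direction. Their higher summed level with IL-17A, as given above, lay almost wholly in Lyz2. Lyz2 alone stood at 227 CPM with IL-17A and 153 CPM with vehicle. Whether these transcripts came from fibroblasts or from myeloid cells was not tested. Gpr45, an orphan, had 93 counts with IL-17A and 44 with vehicle, 2.30-fold higher (interval 1.59 to 3.37). Gprc5a, an orphan first described as induced by retinoic acid, had 408 counts with IL-17A and 218 with vehicle, 2.03-fold higher (interval 1.72 to 2.41), and under total-count or upper-quartile scaling it lay within 2-fold.

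At the other end, Gpr17, an orphan best known from oligodendrocyte precursors, had 1 count with IL-17A and 61 with vehicle, 56.1-fold lower with a wide interval of 9.70 to 2253 and 188 exon bases shared with Lims2 on the opposite strand. Gprc5c had 17 counts with IL-17A and 39 with vehicle, 2.11-fold lower (interval 1.17 to 3.98). Gpr17 and Gprc5c were low in both libraries, at most 2.44 CPM. The 5 glial and melanocyte markers, Sox10 among them, summed to 12.2 CPM with IL-17A and 10.8 CPM with vehicle; their part in these ratios was not tested. Within 2-fold, the orphans Gpr153 and Gpr176 were abundant, with ratios above 1. Gpr153 had 8705 counts (96.8 CPM per kb) with IL-17A and 6040 counts (61.8 CPM per kb) with vehicle, 1.57-fold higher (interval 1.52 to 1.62). Gpr176 had 6499 counts (72.4 CPM per kb) with IL-17A and 4036 counts (41.4 CPM per kb) with vehicle, 1.75-fold higher (interval 1.68 to 1.82). Gpr85 and Gprc5b stood at 0.84 and 0.77, and Gpr149 and Gpr27 at -0.63 and -0.57, each with an interval on 1 side of 0. Gpr135, Gpr146, Gpr161, Gpr157, Gpr173, Gpr19 and Gpr63 lay between -0.39 and 0.37 with intervals that spanned 0.

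Of 10 measured RGS genes, 3 were at least 2-fold higher and 1 was lower, against 5.19% and 3.69% of all measured genes. All 4 belong to the subfamily of mostly small RGS proteins that act on the inhibitory and phospholipase C-coupled alpha subunits. Among the higher ones Rgs8 had 68 summed counts, in a range where 9.48% of all genes were higher. Rgs16 had 2416 counts (105 CPM) with IL-17A and 710 counts (28.4 CPM) with vehicle, 3.70-fold higher (interval 3.40 to 4.03), with 236 of 2339 exon bases shared with Gm28513 on the opposite strand. Per length it was the most abundant RGS gene with IL-17A, at 44.9 CPM per kb, with Rgs19 next at 18.3 CPM per kb. With vehicle the order was the reverse, Rgs16 at 12.1 CPM per kb and Rgs19 at 18.9 CPM per kb. Rgs3 had 817 counts (35.5 CPM) with IL-17A and 356 counts (14.2 CPM) with vehicle, 2.49-fold higher (interval 2.20 to 2.83). Rgs8, known mainly from neurons, had 51 counts with IL-17A and 17 with vehicle, 3.26-fold higher (interval 1.85 to 6.02), with 70 exon bases shared with Gm29529 on the opposite strand. Rgs4 went the other way, with 156 counts (6.78 CPM) with IL-17A and 556 counts (22.2 CPM) with vehicle, 3.28-fold lower (interval 2.74 to 3.94). Rgs2, of the same subfamily, had 143 counts with IL-17A and 151 with vehicle, a log2 ratio of 0.04 (interval -0.30 to 0.38). Rgs17 stood at 0.68 (interval 0.23 to 1.14), and Rgs10, Rgs11, Rgs12 and Rgs19 lay between -0.11 and 0.41 with intervals that spanned 0.

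A further 15 members carry a matching symbol but encode neither an established G protein-coupled receptor nor an RGS protein. Of these, 1 was at least 2-fold lower and 0 higher, against 3.69% and 5.19% of all measured genes. It was Npr3, the natriuretic peptide receptor that clears its ligand and lacks the cyclase domain, with 8 counts (0.348 CPM) with IL-17A and 120 counts (4.80 CPM) with vehicle, 13.8-fold lower (interval 6.78 to 32.7), with 321 exon bases shared with Gm5144 on the opposite strand. Npr2, the guanylyl cyclase receptor for C-type natriuretic peptide, had 2233 counts (20.8 CPM per kb) with IL-17A and 2388 counts (20.5 CPM per kb) with vehicle, a log2 ratio of 0.02 (interval -0.06 to 0.11). The clearance receptor and the signalling receptor thus differed in these libraries. Gpr180 had 1095 counts with IL-17A and 1101 with vehicle, a log2 ratio of 0.11. Nprl2 and Nprl3, which inhibit mTOR signalling, Agtrap, Rgs7bp, Gpr89, Gpr107, Gpr108, Gpr137, Gpr137b, Gpr137b-ps, Gpr137c and Gpr155 ranged from -0.59 to 0.69. Gpr137b and Gpr137b-ps are near-identical copies, so the split of reads between them is uncertain.

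The upstream DNA of members at 2-fold or more was searched for motifs in the 250 bases before each RefSeq start on GRCm38.p6, where 65 of 86 members, and 17 of the 24 past 2-fold, had an entry. The letters TTGCNNAA on either strand, a form of the site of C/EBP factors, which are known effectors of IL-17, occurred in 9.56% of all 32851 upstream windows. They occurred in 3 of 14 windows of higher members, from P2ry2 and Rgs3, and in 4 of 11 windows of lower members, from Ackr3, Adgrf5, Adra1b and Rgs4. They occurred in 3 of 71 windows of members within 2-fold. Windows of 1 gene can overlap, and both P2ry2 windows held the same site. Counted by gene, matches occurred in 2 of 9 higher members, 4 of 8 lower members and 2 of 48 members within 2-fold. No share by gene was computed over all genes, and a gene with more windows has more chances of a match. Some windows lay inside the GENCODE span of their gene, all 250 bases for P2ry2, Gpr35 and Adgrg1 and 174 for Gpr84. The P2ry2 match is therefore not upstream of that span. The 10-letter NF-kB consensus, in 3.90% of all windows, occurred in 0 of 14 windows of higher and 0 of 11 of lower members, and TGACGTCA, the cyclic AMP response element, in 1.55% of all windows and in none of those 25. A match is a run of letters and not a shown binding site. To show such windows, 1 receptor and 1 RGS gene from each direction are given, 5′ to 3′ on the gene's strand and ending at the base before the start, with TTGCNNAA matches in capitals. Adora2b lies at chr11:62248734-62248983 on the plus strand, Rgs3 at chr4:62559597-62559846 on the plus strand, Adra1b at chr11:43901238-43901487 on the minus strand and Rgs4 at chr1:169747643-169747892 on the minus strand.
Adora2b: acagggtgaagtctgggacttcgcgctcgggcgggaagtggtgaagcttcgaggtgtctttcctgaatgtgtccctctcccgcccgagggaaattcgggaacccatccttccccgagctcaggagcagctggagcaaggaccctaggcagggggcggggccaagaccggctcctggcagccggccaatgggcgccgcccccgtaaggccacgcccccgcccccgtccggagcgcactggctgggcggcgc
Rgs3: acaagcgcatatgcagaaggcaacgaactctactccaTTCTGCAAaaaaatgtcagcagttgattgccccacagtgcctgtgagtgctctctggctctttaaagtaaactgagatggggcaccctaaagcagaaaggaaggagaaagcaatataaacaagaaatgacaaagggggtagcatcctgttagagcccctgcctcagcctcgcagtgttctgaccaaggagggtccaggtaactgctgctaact
Adra1b: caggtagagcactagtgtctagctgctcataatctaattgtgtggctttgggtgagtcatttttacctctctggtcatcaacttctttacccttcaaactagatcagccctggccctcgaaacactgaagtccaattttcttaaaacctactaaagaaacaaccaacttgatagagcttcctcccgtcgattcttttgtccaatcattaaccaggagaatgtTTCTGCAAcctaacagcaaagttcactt
Rgs4: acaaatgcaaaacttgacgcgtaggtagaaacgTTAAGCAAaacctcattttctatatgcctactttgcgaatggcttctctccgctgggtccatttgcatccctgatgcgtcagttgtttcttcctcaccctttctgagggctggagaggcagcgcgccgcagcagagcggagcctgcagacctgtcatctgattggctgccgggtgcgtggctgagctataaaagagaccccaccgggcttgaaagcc
Counted from the start, the match spanned -28 to -21 in Adra1b, -213 to -206 in Rgs3 and -217 to -210 in Rgs4. The Adora2b window held none. The printed windows are examples, and their share of matches does not stand for the members searched.

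Several pairs of members are neighbours in the genome, within 200 kb of each other in GENCODE M21 on GRCm38, the assembly known as mm10. Rgs8 at chr1:153653025-153700323 and Rgs16 at chr1:153740349-153745468 were both at least 2-fold higher. Bdkrb2 at chr12:105563226-105595237 and Bdkrb1 at chr12:105603085-105605428 lie 7847 bases apart and were both higher as well. In another 3 pairs 1 gene was higher and its neighbour was not. F2rl1 at chr13:95511732-95525227 was higher while F2r at chr13:95601803-95618487 was within 2-fold, with a ratio below 1. P2ry2 at chr7:100996568-101012866 was higher while P2ry6 at chr7:100937630-100974649 was within 2-fold, and Gprc5a on chromosome 6 was higher while its neighbour Gpr19 was not. Gpr108 with Adgre1 and Adgre5 with Adgrl1 were within 2-fold for both genes.

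Ligands of G protein-coupled receptors, and enzymes that make or clear them, were set beside the members. Not every ligand had a measured receptor among the members, as with Cxcl1, Cxcl2 and Cxcl5. For adenosine, Nt5e, which makes it from AMP, had 5567 counts with IL-17A and 2799 with vehicle, 2.16-fold higher, and Slc29a1, a carrier for it, was 2.71-fold higher. Ada, which degrades adenosine, had 97 counts with IL-17A and 233 with vehicle, 2.21-fold lower, while Adora2b was higher as given above. For Calcrl, the ligand Adm had 8796 counts with IL-17A and 1124 with vehicle, 8.51-fold higher, but each of its 3 RAMP partners was lower. Ramp1 had 160 counts with IL-17A and 381 with vehicle, 2.19-fold lower (interval 1.82 to 2.65). Ramp2 had 33 counts with IL-17A and 91 with vehicle, 2.54-fold lower (interval 1.69 to 3.90). Ramp3 had 14 counts with IL-17A and 57 with vehicle, 3.75-fold lower (interval 2.06 to 7.28). The ligand was thus past 2-fold higher and the partner proteins past 2-fold lower, with the receptor just inside the limit.

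**Figure D4:**
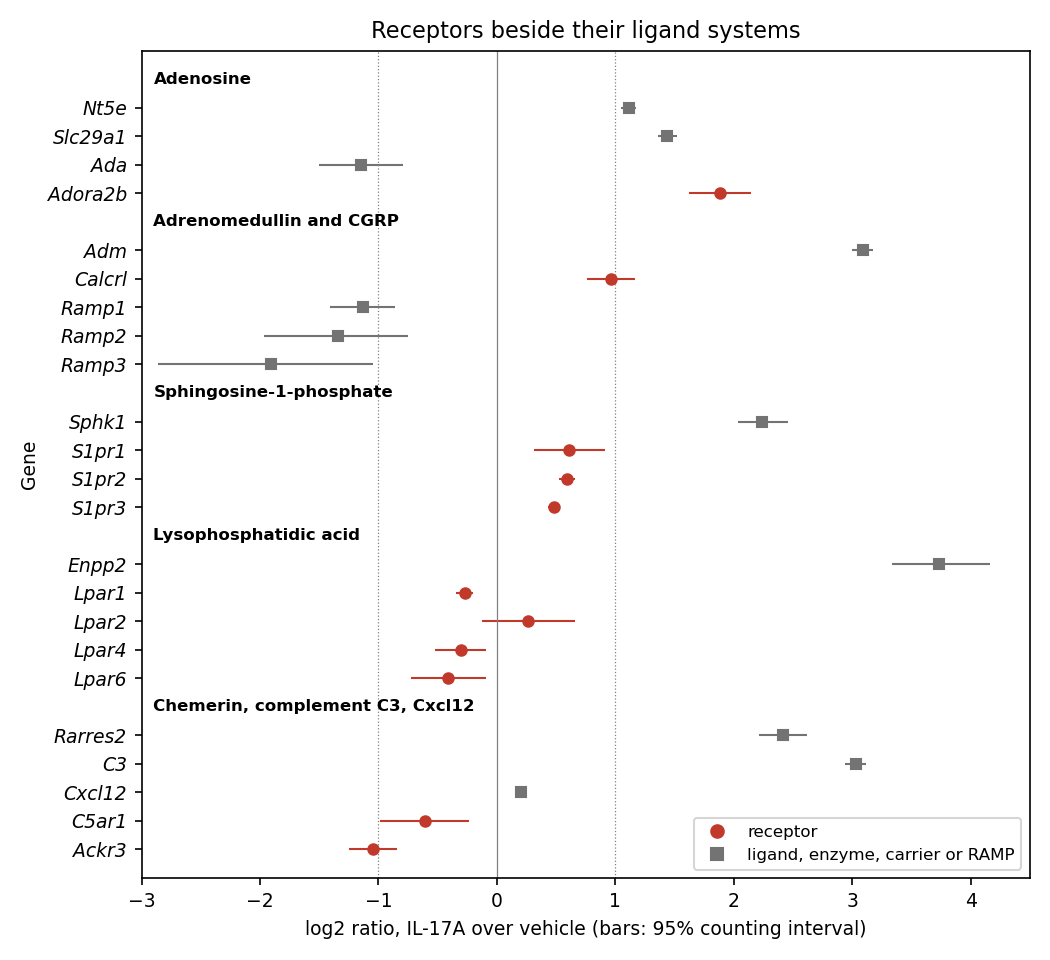
log2 ratio of IL-17A over vehicle with 95% counting intervals for receptors (red circles) and for ligands, enzymes, carriers or RAMP proteins (grey squares), in groups, with dotted lines at 2-fold. In the group of chemerin, C3 and Cxcl12, only Cxcl12 and Ackr3 are a ligand and its receptor. C5ar1 binds C5a, and no receptor of Rarres2 (chemerin) or C3 is drawn. In the adrenomedullin group Adm stood at 3.09 and Calcrl at 0.97, with Ramp1, Ramp2 and Ramp3 at -1.13, -1.34 and -1.91.

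For the lysolipids, Sphk1, which makes sphingosine-1-phosphate, was 4.73-fold higher (1006 counts with IL-17A and 231 with vehicle). Enpp2, the secreted enzyme autotaxin that makes lysophosphatidic acid, was 13.3-fold higher (675 counts with IL-17A and 55 with vehicle). Their receptors lay within 2-fold as given above. Of 12 measured chemokine and complement ligands 10 were at least 2-fold higher and 0 lower, against 5.19% and 3.69% of all measured genes. The higher ones were Cxcl2, Cxcl16, Ccl5, Cxcl1, Cxcl10, Cxcl5, C3, Ccl2, Rarres2 and Ccl7. Cxcl12, given because it is the ligand of Ackr3, had 12247 counts with IL-17A and 11578 with vehicle, 1.15-fold higher, so Ackr3 was lower beside a near-level ligand.

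Genes that act below the receptors were read against the same 8.88% of all measured genes past 2-fold in either direction. Of 10 measured G protein alpha subunits 0 were past it, and the most abundant per length were Gnai2 and Gnas, at log2 ratios of -0.02 and -0.16. Of 11 beta and gamma subunits 2 were higher. Gnb4 had 1975 counts with IL-17A and 724 with vehicle, 2.96-fold higher, and Gng11 had 776 with IL-17A and 263 with vehicle, 3.21-fold higher. Of 8 adenylyl cyclases, which make cyclic AMP, 2 were lower. Adcy1 had 29 counts with IL-17A and 372 with vehicle, 11.8-fold lower (interval 8.08 to 17.9), and Adcy5 was 2.03-fold lower. Of 13 phosphodiesterases, which degrade cyclic nucleotides, 4 were higher and 1 lower, namely Pde1a at 3.65-fold, Pde1b at 3.04-fold and Pde4b at 2.49-fold higher, Pde7b with 456 counts with IL-17A and 165 with vehicle, and Pde8b at 2.03-fold lower. No receptor kinase or arrestin passed 2-fold among 6, and Grk2, which desensitises receptors, was 1.53-fold higher. Plcb1 was 2.01-fold higher among 6 genes of the phospholipase C branch, and Prex2 3.33-fold lower among 7 exchange factors of small GTPases. Of 10 cyclic AMP target genes, Ptgs2 and Pde4b were higher and 0 lower, and 0 of 10 cyclic AMP effectors passed 2-fold, the most abundant per length being Prkar1a at a log2 ratio of 0.24.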

How the data were processed

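The authors deposited raw read counts per gene symbol, 1 column per library, with no normalization. Per the labels' protocols, RNA was extracted with a PureLink kit and made into Illumina stranded mRNA libraries, and STAR, featureCounts and the mm10 build appear in the submitters' processing notes. The sources used here do not give versions, annotation, strand setting or the handling of multi-mapped reads. TMM factors came from edgeR 4.0.16 (R 4.3.3), and ratios with Clopper-Pearson intervals were computed in scipy 1.17.1 for genes with at least 50 summed counts. DESeq2 1.42.0 gave alternative size factors only. The planned design had no test because each group held 1 library. The calculation was tested on simulated data. Exon lengths (the union over a gene's exons) and coordinates came from GENCODE M21, and upstream sequences from RefSeq on GRCm38.p6. Every member was eligible to be named, as was every gene of the signalling lists past 2-fold, or otherwise the most abundant of a list, and unmeasured receptors with at least 20 counts in a library. Some members, counted in every total, are not reported here by name. Members and lists were chosen with earlier results of these data known. A count of 0 allows up to 3 counts, 0.130 CPM with IL-17A and 0.120 CPM with vehicle. Rows whose symbol reads as a date, 21 in all, stayed in the totals. Alternatives were other scalings, count minimums, fold limits and a prior count, and leaving out members that are neither receptors nor RGS proteins.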

Additional observations from a re-analysis of the deposited data

How the results depend on the processing

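The count of members lower was 12 of 86 as reported. It was 19 of 109 with a minimum of 10 summed counts and 25 of 152 with no minimum. A minimum of 200 left 4 of 58. Over all genes 955 of 16021, 1335 of 17846 and 275 of 11476 were lower at those minimums, against 500 of 13534 as reported. The count of members higher was 24 of 152 with no minimum, against 12 of 86 as reported. Of 86 members, 22 were higher at 1.5-fold and 6 at 3-fold. Over all genes 1573 of 17846 were higher with no minimum, and 1364 of 13534 at 1.5-fold and 340 of 13534 at 3-fold. Signalling-list genes lower numbered 8 as reported, 13 with no minimum, 5 with a minimum of 200, 14 at 1.5-fold, 3 at 3-fold and 3 when the nearer interval bound had to pass 2-fold, and those higher were 23 as reported and 35 at 1.5-fold. Over all genes the counts were 702 higher and 500 lower as reported, and 1090 and 955 with a minimum of 10. By the nearer bound 508 genes were higher and 277 lower, and 8 members were higher and 8 lower. At 1.5-fold 1117 genes were lower, and at 3-fold 219. A lower minimum or fold admits more genes by construction. Total-count and upper-quartile scaling each gave 11 members higher and 13 lower, by Gprc5a and Adra1d, and DESeq2 size factors changed no member's call. A prior count of 2 moved Adgrg1 and Gprc5c just inside 2-fold. No member past 2-fold changed direction under the alternative scalings or the prior count, but that outcome was fixed in advance. The scalings shift all log2 ratios alike by a small amount, and the prior count only pulls them towards 0. A minimum of 200 leaves each ratio unchanged. The members' median log2 ratio ran from -0.06 to 0.06 over the settings tried.

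No paired analysis was possible because each group held 1 library. Exons of Gpr84, Rgs16, Rgs8, Npr3, Gpr17, Adra1d and Gnas overlap a gene on the opposite strand. So do exons of other genes named here, among them Adgre5, Adgrl1, Adgrl3, Gprc5b, Gpr89, Cxcl16 and Rarres2. Without a stated strand setting, reads of the partners cannot be told apart.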

Other observations

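A further 80 rows with a matching symbol stayed under 50 summed counts, and 2 of them had at least 20 counts in a library. The adrenergic receptor Adrb3, known from adipocytes, had 14 counts with IL-17A and 29 with vehicle. Its log2 ratio was -0.93 with an interval of -1.96 to 0.04 that spanned 0, and 839 of its exon bases overlap Gm45470 on the opposite strand. The zinc-sensing receptor Gpr39 had 23 counts with IL-17A and 11 with vehicle. The following were named after their values were seen. Ccrl2, a chemerin-binding receptor, had 14 counts with IL-17A and 4 with vehicle, and Gpr65, a proton-sensing receptor, had 2 counts with IL-17A and 16 with vehicle. The neutrophil chemokine receptor Cxcr2 had 0 counts in both libraries, although its ligands Cxcl1, Cxcl2 and Cxcl5 were higher, and Cxcr4, the signalling receptor for Cxcl12, had 7 counts with IL-17A and 5 with vehicle. Oxtr, the oxytocin receptor, had 2 counts with IL-17A and 10 with vehicle.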
